A study of Homo sapiens with 24 samples.

Results

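The genes described here are 52 genes of DNA replication licensing and S phase, out of 18239 genes measured by array in HCT116, a long-established line of human colon carcinoma cells. They were taken by name from a fixed list, all 52 were found on the array, and none was filtered out for a low signal. Each gene is represented by its brightest probe set, the one with the highest mean over the 24 arrays. By role, 14 genes license replication origins, 8 fire them, 22 work at the fork or in the chromatin behind it, 6 supply or guard the nucleotides, and 2 encode the transcription factors E2F1 and E2F2.

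The groups combine 2 kinds of cells, the parental line and cells to which estrogen receptor beta was added (called ESR2 cells), with normoxia or hypoxia, without treatment or with 10 nM 17β-estradiol, a natural estrogen. These 8 groups hold 3 arrays each. The ESR2 cells received, by lentivirus, full-length ESR2 with a HaloTag at its N terminus from a vector that also encodes GFP and puromycin resistance; they were puromycin-selected and used as a GFP-positive pool, not as a clone. Estradiol-treated cells grew in DMEM without phenol red and with charcoal-stripped serum. For hypoxia, a CO2 and nitrogen mixture was flushed through the incubator; its oxygen level and duration are not stated in the labels, nor are the medium of untreated cells or any empty-vector cells. Nothing in the labels says that the replicates were separate cultures, so a p-value here reflects the spread among arrays of a group, which could be technical only. Values are RMA log2 signals, and a difference of 1 is a doubling. Changes were tested with limma over all genes, and a gene is said to rise or fall where the p adjusted by Benjamini-Hochberg over all genes is under 0.05.

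Cells prepare their replication origins before S phase. The origin recognition complex (ORC) binds DNA, and CDC6 and CDT1 load the MCM2 to MCM7 helicase onto it; geminin, encoded by GMNN, holds CDT1 back so that an origin is licensed only within its window of the cycle. At S phase entry the kinase CDC7 with its activator DBF4, together with CDC45, the GINS complex and MCM10, turns the loaded helicase into a moving fork, where the sliding clamp PCNA, its loader RFC, the single-strand binder RPA and the polymerases copy the strands. Many of these genes are targets of E2F factors, and their RNA is a usual readout of proliferating cells.

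All 24 arrays carried the epithelial markers of a colon carcinoma line: EPCAM lay between 11.01 and 11.43, KRT18 between 10.03 and 11.27 and KRT19 between 10.88 and 11.86, while KRT8 (7.84 to 10.31), CDH1 (5.95 to 8.46) and ELF3 (4.703 to 6.403) ranged lower. The 6 fibroblast markers stayed between 2.25 and 4.24, near the floor of the array. Of the 5 leukocyte markers PTPRC (2.49 to 2.88) and CD14 (2.49 to 2.92) lay there too. CD3E ranged from 3.62 to 4.15, LYZ from 2.87 to 4.35 and HLA-DRA higher, from 4.36 to 6.46. ESR2 was 3.43 to 3.48 over the 4 group means of parental cells and 3.93 to 4.51 over those of ESR2 cells. Its signal in ESR2 cells was thus in or just above the range of the fibroblast markers. There its mean was lower in hypoxia. Without estradiol it was 4.07 (SD 0.11) against 4.51 in normoxia, where the arrays spread widely (SD 0.44). With estradiol it was 3.93 (SD 0.015) against 4.41 (SD 0.066). No test of this difference is given here. Some arrays stood apart. Replicate 2 of untreated normoxic parental cells correlated with its group at 0.988, and its 3′ minus 5′ index was 4.34, the highest value in the series. This index is a log2 difference between control probe sets that grows as the labelled RNA gets shorter. It averages the actin, dap and thr controls, of which dap and thr are bacterial sequences and not genes of the cells. The GAPDH control, left out of it, was 0.74 on that array. In hypoxic ESR2 cells GAPDH was -0.01 to 0.07 with estradiol and -0.22 to -0.12 without. The hypoxic ESR2 group with estradiol had an index between 3.42 and 4.01 on all 3 arrays, against 2.00 to 2.19 in the same cells without estradiol. The dap control alone was 3.445 to 3.747 on those arrays with estradiol and 2.002 to 2.057 without. For comparisons that use these arrays, counts are given also without the parental array or, for the estradiol group, with the index as a covariate.

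RefSeq promoter windows of GRCh38.p14, from 250 bases before to 50 bases after a start site, were held for 47 of the 52 genes, in 62 windows. Windows of 6 genes with large changes, chosen after their values were seen, are printed to show how unlike their letters are. Capitals mark the E2F letters (TTTCCCGC, TTTGGCGC, TTTCGCGC or TTTGCCGC) and the NF-Y letters CCAAT, each on either strand, so that a match on the opposite strand reads as its reverse complement and matches can overlap.
ORC5 (chr7:104207964-104208263, minus strand): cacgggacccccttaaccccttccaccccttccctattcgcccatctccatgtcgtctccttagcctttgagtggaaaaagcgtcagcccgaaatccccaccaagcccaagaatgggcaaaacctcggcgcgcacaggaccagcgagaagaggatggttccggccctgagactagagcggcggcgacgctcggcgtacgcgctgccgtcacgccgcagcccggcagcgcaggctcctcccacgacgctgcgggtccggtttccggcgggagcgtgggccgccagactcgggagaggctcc
ORC6 (chr16:46689409-46689708, plus strand): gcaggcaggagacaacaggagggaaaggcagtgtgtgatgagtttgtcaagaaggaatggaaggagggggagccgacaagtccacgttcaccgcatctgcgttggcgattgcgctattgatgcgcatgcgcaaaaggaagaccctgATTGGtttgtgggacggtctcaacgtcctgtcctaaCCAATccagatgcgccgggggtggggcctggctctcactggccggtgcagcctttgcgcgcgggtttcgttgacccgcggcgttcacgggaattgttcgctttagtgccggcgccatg
MCM6 (chr2:135876394-135876693, minus strand): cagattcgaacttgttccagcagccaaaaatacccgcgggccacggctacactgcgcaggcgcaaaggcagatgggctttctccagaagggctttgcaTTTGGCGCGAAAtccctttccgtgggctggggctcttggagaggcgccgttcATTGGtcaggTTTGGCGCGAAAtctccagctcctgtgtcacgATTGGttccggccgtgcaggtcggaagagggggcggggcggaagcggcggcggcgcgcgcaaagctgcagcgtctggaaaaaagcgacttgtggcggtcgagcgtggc
GINS3 (chr16:58392221-58392520, plus strand): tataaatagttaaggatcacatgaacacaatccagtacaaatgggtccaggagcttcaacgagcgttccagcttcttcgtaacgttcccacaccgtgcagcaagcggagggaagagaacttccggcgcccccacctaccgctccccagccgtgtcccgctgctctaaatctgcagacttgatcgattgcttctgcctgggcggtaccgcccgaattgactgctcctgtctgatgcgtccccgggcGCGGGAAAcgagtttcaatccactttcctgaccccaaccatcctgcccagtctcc
CHAF1A (chr19:4402390-4402689, plus strand): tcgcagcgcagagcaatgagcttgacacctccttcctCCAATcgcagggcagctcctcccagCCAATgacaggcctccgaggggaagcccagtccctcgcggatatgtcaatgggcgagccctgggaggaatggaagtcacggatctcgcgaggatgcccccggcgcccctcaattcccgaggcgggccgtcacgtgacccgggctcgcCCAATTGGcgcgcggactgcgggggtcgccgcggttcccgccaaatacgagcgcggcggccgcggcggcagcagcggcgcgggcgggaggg
UNG (chr12:109097922-109098221, plus strand): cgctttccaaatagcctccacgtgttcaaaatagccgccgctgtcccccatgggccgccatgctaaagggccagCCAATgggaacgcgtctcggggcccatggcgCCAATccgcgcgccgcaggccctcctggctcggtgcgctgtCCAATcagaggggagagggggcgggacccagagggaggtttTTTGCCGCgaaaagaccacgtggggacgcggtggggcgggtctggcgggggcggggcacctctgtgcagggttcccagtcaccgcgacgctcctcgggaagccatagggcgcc

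The MCM6 window holds 4 E2F matches, in 2 pairs of overlapping matches on opposite strands, and the GINS3 window and the printed UNG window hold 1 each. UNG has a further window, upstream of the printed one, with no E2F match and 1 CCAAT match. No E2F match was found in the ORC5, ORC6 and CHAF1A windows, which hold 0, 2 and 4 CCAAT matches. Over the whole set, E2F letters were present in 25 of 62 windows, 40.3%. Among 35116 windows of the same length, over all genes with a window, measured here or not, the share was 3.31%. CCAAT was present in 54.8% against 34.6%. The core of the hypoxia response element, ACGTG, was present in 32.3% against 21.4%, and the E-box CACGTG, which contains that core, in 12.9% against 7.26%. The estrogen response element (GGTCA and TGACC with any 3 bases between) was in none of the 62 windows and in 0.057% of all windows. Over only the 20506 windows of genes measured here, the shares were 4.15%, 34.7%, 23%, 8.28% and 0.0293%, in the same order. Genes with and without E2F letters did not stand far apart in their hypoxia change: in untreated parental cells the median was -0.38 over 25 genes with the letters and -0.41 over 22 genes without. A match is a description of these letters and not a bound site.

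Across the 8 groups the genes did not move as a block, but a hypoxic group held the lowest mean of 46 of the 52 genes and a normoxic group the highest mean of 33. Untreated hypoxic parental cells had the lowest group mean for 17 of the 52 genes, hypoxic ESR2 cells with estradiol for 15 and hypoxic parental cells with estradiol for 9. The highest mean lay in untreated normoxic parental cells for 17 genes, and in normoxic parental cells with estradiol and hypoxic ESR2 cells with estradiol for 10 each. CHAF1A, a chromatin assembly subunit, had the widest span of group means, 2.63, from 6.07 in hypoxic ESR2 cells with estradiol to 8.70 in untreated normoxic parental cells. The narrowest span was that of TYMS, which makes thymidylate, at 0.21. The heat map of group means shows that the large departures of ORC2, ORC5, ORC6, CDC7, GINS3 and GINS4 lie in hypoxic parental cells, and those of CHAF1A, PRIM1, RPA3, TK1 and MCM10 in hypoxic ESR2 cells with estradiol.

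**Figure D1:**
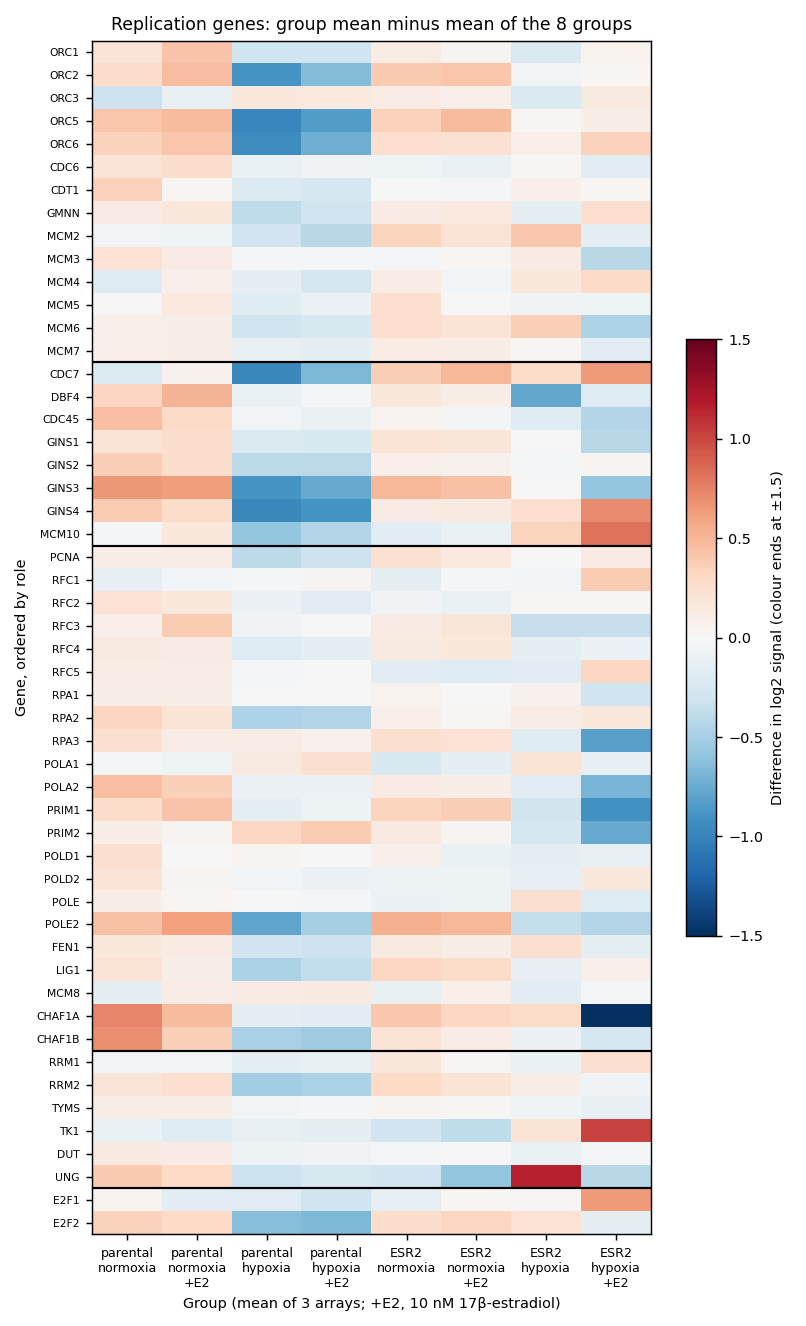
Mean log2 signal of each of the 52 genes in each of the 8 groups (3 arrays a group) minus the gene's mean over the groups, genes in rows ordered by role; red is above and blue below that mean, and the colour ends at 1.5, which the value of CHAF1A in hypoxic ESR2 cells with estradiol passes. Blue cells of the licensing and firing genes cluster in the columns of hypoxic parental cells.

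Taking each gene relative to its own mean over the arrays, the median licensing gene lay between -0.33 and -0.21 on the 3 arrays of untreated hypoxic parental cells, against 0.01 to 0.18 in normoxia. The median firing gene showed the widest gap, from -0.50 to -0.48 in hypoxia and from 0.27 to 0.33 in normoxia. In untreated ESR2 cells the same median lay between 0.01 and 0.03 in hypoxia and between 0.11 and 0.20 in normoxia. For the fork genes, untreated hypoxia gave -0.10 to -0.07 in parental and -0.10 to -0.05 in ESR2 cells, so the arrays of the 2 cell types overlapped there.

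**Figure D2:**
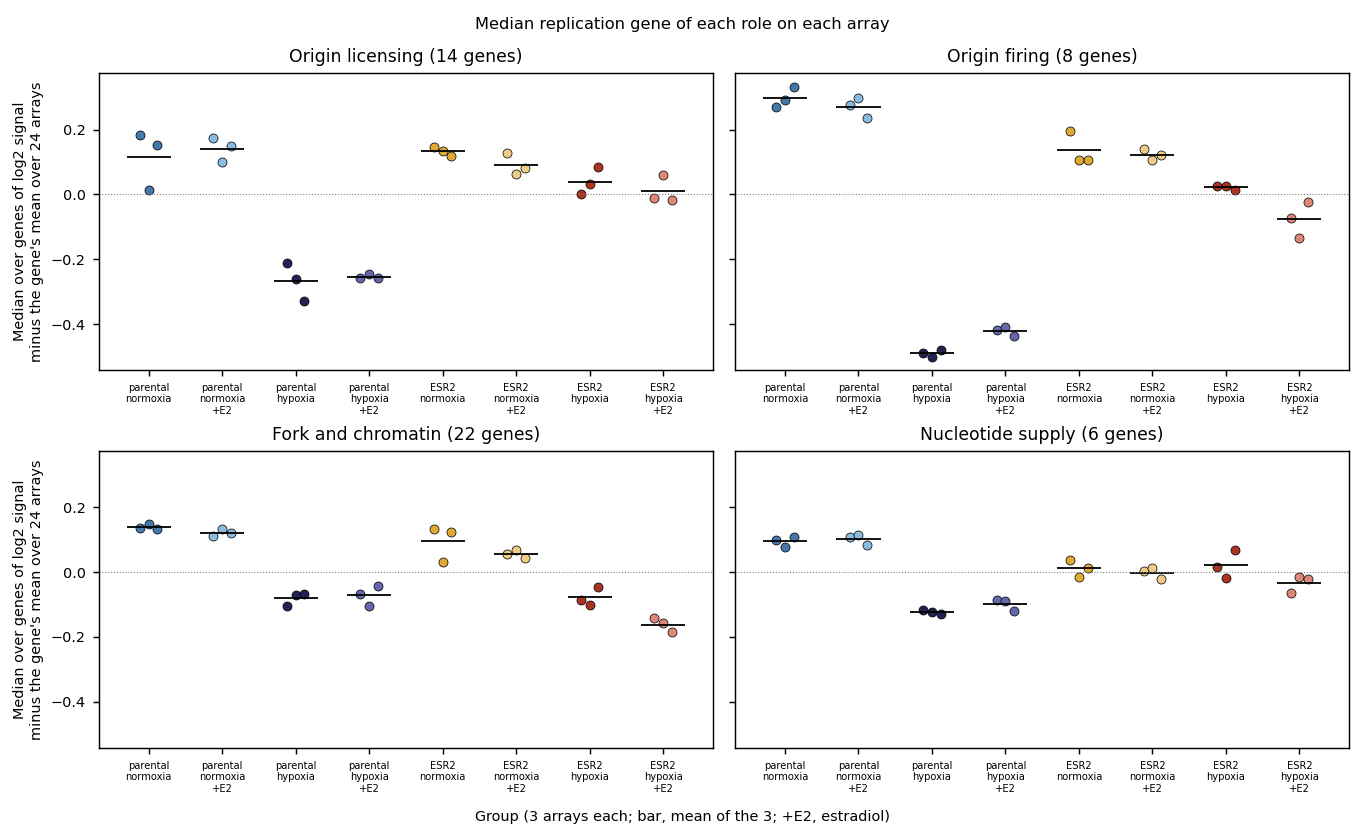
Median over the genes of a role of the log2 signal minus each gene's mean over the 24 arrays, 1 point an array in each of the 8 groups, the bar being the mean of 3 arrays. The licensing and firing medians of the 6 arrays of hypoxic parental cells lie below all other arrays.

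Hypoxia lowered most replication genes in untreated parental cells. Of the 52 genes 35 fell, 3 rose and 14 did not pass, with a median change of -0.39; over all genes 21.2% fell and 16.4% rose (37.5% in either direction), with a median of 0.0033. All 3 hypoxic arrays lay on one side of all 3 normoxic arrays for 36 of the 52 genes, against 43.8% of all genes. In bulk RNA, fewer cells in S phase and less RNA per cell cannot be told apart. The summed level of 6 epithelial markers also moved with oxygen, from 51.1 to 53.9 on normoxic arrays to 57.0 to 58.6 on hypoxic arrays of both cell types, and its part in the result was not tested. By role, all 8 firing genes fell (median -0.67), and 11 of 14 licensing genes, 11 of 22 fork genes, 4 of 6 nucleotide genes and E2F2 fell.

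Among the licensing genes ORC5, ORC6 and ORC2, subunits of the origin recognition complex, changed most. ORC5 read 9.10, 9.16 and 9.10 in normoxia and 7.67, 7.67 and 7.80 in hypoxia. All 3 hypoxic arrays lay over 1 unit below every normoxic array, and ORC5 fell by 1.40 (SE 0.06; limma, adjusted p = 2.16e-14), 2.65-fold lower. ORC6, the smallest subunit of the complex, read 10.23, 9.93 and 10.19 in normoxia and 8.73, 8.86 and 8.90 in hypoxia, and fell by 1.28 (SE 0.07; adjusted p = 1.08e-12). For ORC2 the values were 6.59, 6.41 and 6.50 in normoxia and 5.23, 5.51 and 5.33 in hypoxia, a change of -1.14 (SE 0.12; adjusted p = 4.21e-08). With the mean of its 3 probe sets in place of the brightest, ORC2 changed by -0.76. GMNN, the inhibitor of CDT1, fell by 0.50 (SE 0.06; adjusted p = 6.78e-07) and CDT1 itself fell by 0.55. CDT1 read 8.64, 9.08 and 8.54 in normoxia and 8.29, 8.16 and 8.15 in hypoxia. The highest normoxic value is that of replicate 2, so the size of this fall depends in part on that array. ORC1, which like CDC6 is an ATPase of the loading machinery, fell by 0.50, and CDC6 fell by 0.29. The helicase subunits moved less: MCM6 fell by 0.38, MCM2 fell by 0.25, MCM3 fell by 0.25 and MCM7 fell by 0.18, whereas MCM5 and MCM4 changed by -0.17 and 0.04 and did not pass. These helicase calls were weak ones: with probe sets averaged MCM2 (-0.22), MCM6 (-0.24) and MCM7 (0.09) did not pass, and neither did MCM3 (-0.10) without replicate 2 of untreated normoxic parental cells. The small change of MCM4 rests on that array too: it read 8.45, 7.44 and 8.30 in normoxia and 8.05, 8.12 and 8.17 in hypoxia. Apart from replicate 2, the normoxic values of MCM4 lay above all its hypoxic ones. ORC3 went the other way, at 8.22, 7.92 and 8.22 in normoxia and 8.55, 8.60 and 8.62 in hypoxia, and rose by 0.47 (SE 0.07).

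All 4 GINS subunits, which join CDC45 and the MCM ring in the active helicase, fell. GINS3 read 8.27, 8.26 and 8.23 in normoxia and 6.79, 6.67 and 6.67 in hypoxia. The groups were well separated, and GINS3 fell by 1.54 (SE 0.07; limma, adjusted p = 9.95e-15), 2.92-fold lower and the largest fall among the 52. GINS4 read 7.81, 8.14 and 7.89 in normoxia against 6.64, 6.60 and 6.57 in hypoxia, and fell by 1.35 (SE 0.07; adjusted p = 5.84e-13). Averaged over its 4 probe sets the fall of GINS4 was smaller, at -0.78. GINS2 fell by 0.77 (SE 0.08; adjusted p = 1.77e-08) and GINS1 fell by 0.42. Of the kinase pair, CDC7 fell by 0.77 and DBF4 fell by 0.42. MCM10, a factor that helps to activate the helicase, fell by 0.57. CDC45 fell by 0.50 (SE 0.07; adjusted p = 2.92e-06) by its brightest probe set, a call that was lost when its 3 probe sets were averaged (-0.09, adjusted p = 0.598).

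At the fork the greatest fall was that of POLE2, a subunit of the leading-strand polymerase epsilon. It read 8.69, 8.31 and 8.78 in normoxia and 7.31, 7.33 and 7.42 in hypoxia and fell by 1.24 (SE 0.09; limma, adjusted p = 6.69e-11). The catalytic subunit POLE changed by -0.09 and did not pass. CHAF1A and CHAF1B encode subunits of the factor that deposits histones behind the fork. CHAF1A fell by 0.86 (SE 0.08; adjusted p = 5.37e-09) and CHAF1B fell by 1.18 (SE 0.10; adjusted p = 1.84e-09). CHAF1B read 7.14, 7.72 and 7.23 in normoxia and 6.18, 6.06 and 6.31 in hypoxia, where the highest normoxic value is that of replicate 2, and the mean of its 2 probe sets gave -0.61. RPA2, a subunit of the single-strand binder, read 10.27, 10.40 and 10.18 in normoxia, 9.55, 9.50 and 9.44 in hypoxia and fell by 0.78 (SE 0.06; adjusted p = 5.96e-10), while RPA1 and RPA3 changed by -0.11 and -0.13 and did not pass. Of the genes that finish the lagging strand, the ligase LIG1 fell by 0.68 and the flap nuclease FEN1 fell by 0.44. PCNA fell by 0.49, POLA2 fell by 0.54, PRIM1 fell by 0.40, RFC4 fell by 0.32 and RFC2 fell by 0.30. PRIM2, the large primase subunit, and MCM8, a helicase of repair, rose by 0.21 and 0.27, but without replicate 2 of untreated normoxic parental cells PRIM2 (0.19, adjusted p = 0.0619) and MCM8 (0.18, adjusted p = 0.172) did not pass. The other fork genes, RFC1, RFC3, RFC5, POLA1, POLD1, POLD2 and those named above as not passing, changed by -0.25 to 0.15. Replicate 2 was the highest normoxic array for POLD1 and POLD2 and the lowest for RFC1, RFC3 and RFC5. The sizes of their changes thus depend in part on that array.

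In nucleotide supply, RRM2, the S phase subunit of ribonucleotide reductase, read 11.63, 11.36 and 11.57 in normoxia and 10.75, 10.84 and 10.82 in hypoxia, and fell by 0.72 (SE 0.07; limma, adjusted p = 3.1e-09). Its 2 probe sets differed, and their mean gave -0.21. The large subunit RRM1 changed by -0.08 and did not pass. UNG, a glycosylase that removes uracil from DNA, read 8.62, 8.47 and 8.64 in normoxia, 8.03, 7.68 and 7.87 in hypoxia and fell by 0.72 (SE 0.14; adjusted p = 0.000129). Of its 2 probe sets, changed by -0.72 and -0.42, the brighter was called. The falls of DUT, which clears dUTP, and TYMS were small, at -0.20 and -0.14. The call of TYMS was lost at much the same size under several alternatives, with the index as a covariate among them (-0.14, adjusted p = 0.079), and that of DUT with only the groups compared (adjusted p = 0.0559). TK1, the thymidine salvage kinase, changed by -0.02 and did not pass. E2F2 read 7.15, 7.12 and 7.09 in normoxia, 6.31, 6.05 and 6.02 in hypoxia and fell by 0.99 (SE 0.12; adjusted p = 2.14e-07), with -0.50 for the mean of its 2 probe sets, and E2F1 changed by -0.22 and did not pass. Without the arrays that stand apart 37 genes fell and 1 rose, and the mean of all probe sets of a gene gave 33 falls and 2 rises.

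**Figure D3:**
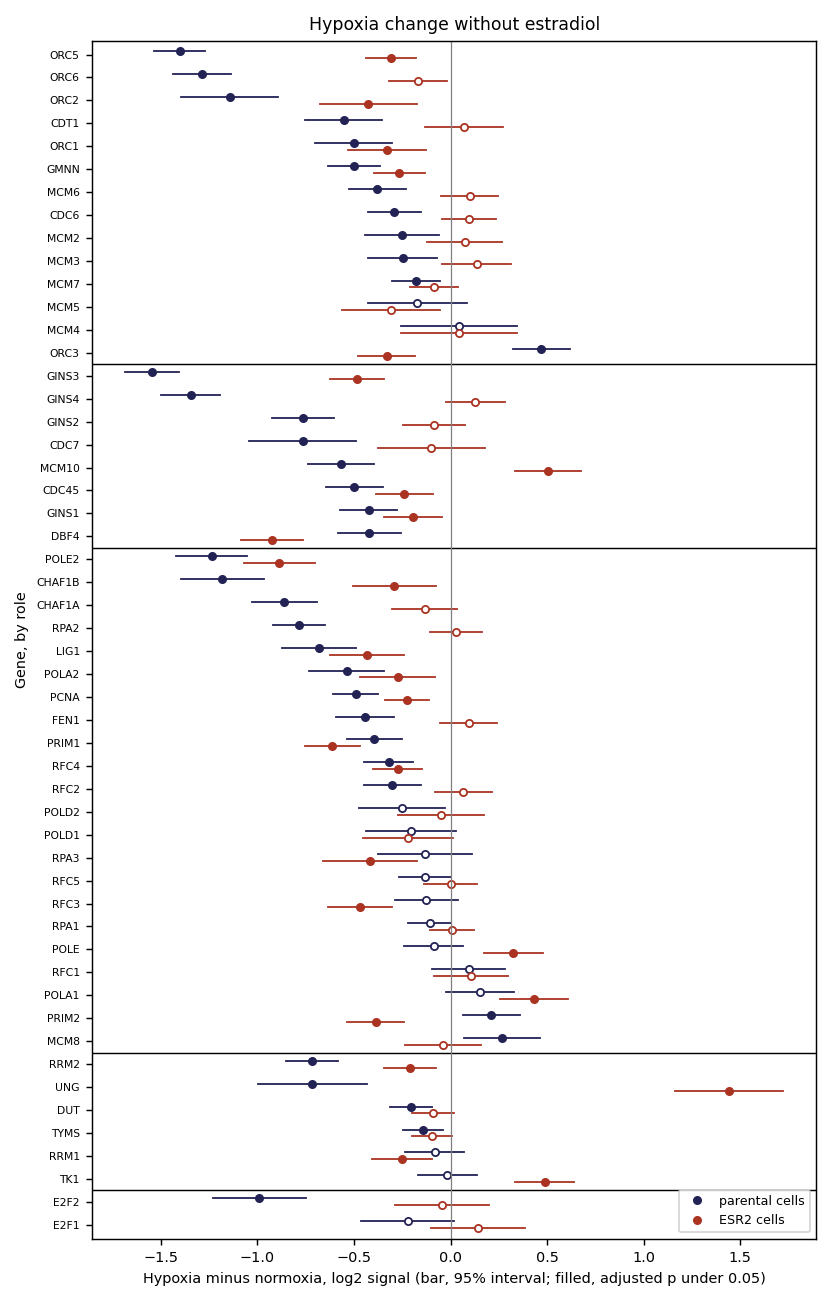
Hypoxia minus normoxia in log2 signal for the 52 genes without estradiol, with 95% intervals from the limma fit, in parental (dark blue) and ESR2 cells (red); filled points have an adjusted p under 0.05. Parental points lie left of 0 for most licensing and firing genes, and those of ESR2 cells lie nearer 0 for most of these genes, with UNG at 1.44 and DBF4 at -0.92 as the extremes.

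With estradiol present, hypoxia changed the parental cells in a like number of genes. Of the 52 genes 34 fell, 3 rose and 15 did not pass (median -0.37), against 18.7% of all genes that fell and 16.1% that rose (34.8% in either direction). The arrays of the 2 groups did not overlap for 45 of the 52, against 50% of all genes. ORC5 fell by 1.32, from 9.15, 9.21 and 9.18 to 7.95, 7.81 and 7.81, and GINS3 fell by 1.39, from 8.22, 8.32 and 8.14 to 6.79, 6.89 and 6.85 (SE 0.07; limma, adjusted p = 8.44e-14). GINS4 fell by 1.17, ORC6 fell by 1.16, POLE2 fell by 1.12 and RRM2 fell by 0.73. The 3 genes that rose were PRIM2 (0.33), POLA1 (0.31), the catalytic subunit of polymerase alpha, and ORC3 (0.26). None of these 6 arrays is among those that stand apart.

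In untreated ESR2 cells hypoxia lowered the primase, GINS3 and DBF4 but raised UNG, TK1 and MCM10. Without estradiol 21 of the 52 genes fell, 5 rose and 26 did not pass, with a median of -0.10, against 18.2% of all genes that fell and 14.4% that rose (32.6% in either direction; median -0.06), and the groups did not overlap for 31 of the 52, against 43.2% of all genes. The share that fell depended on the probe set: averaging the probe sets by gene, 11 fell and 9 rose, and 13 of the 26 calls were kept. DBF4, the activator of CDC7, fell most, from 8.63, 8.55 and 8.32 to 7.57, 7.55 and 7.60, a change of -0.92 (SE 0.08; limma, adjusted p = 3.36e-09). POLE2 fell by 0.89, PRIM1, the catalytic primase subunit, fell by 0.61, GINS3 fell by 0.48 and RFC3 fell by 0.47. PRIM2 fell by 0.39, a call that did not hold with the mean of its 2 probe sets (-0.05). The genes that rose were UNG, MCM10, TK1, POLA1 and POLE. UNG read 7.98, 7.91 and 7.82 in normoxia and 9.38, 9.40 and 9.25 in hypoxia, 2.72-fold higher (SE 0.14; limma, adjusted p = 1.89e-08), and its 2 probe sets changed by 1.44 and 1.86. TK1 rose by 0.49, MCM10 rose by 0.50, POLA1 rose by 0.43 and POLE rose by 0.32; for MCM10 the mean of 3 probe sets gave 0.15 (adjusted p = 0.108).

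The test of the difference, the interaction of hypoxia with ESR2, asks whether the hypoxia change was the same in both cell types. It is the ESR2 change minus the parental change and shares its arrays with the comparisons above. Without estradiol it was positive for 24 of the 52 genes, negative for 4 and not called for 24, with a median of 0.27; over all genes 16.4% were positive and 14.3% negative (30.7% in all), with a median of -0.04. The call was positive for 7 of 14 licensing, 5 of 8 firing, 8 of 22 fork and 3 of 6 nucleotide genes and for E2F2. Leaving out replicate 2 of untreated normoxic parental cells gave 34 calls, of which 30 were positive.

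GINS4 had the smallest p. It read 7.72, 7.58 and 7.79 in normoxic and 7.88, 7.86 and 7.74 in hypoxic ESR2 cells, groups that overlap no parental hypoxic value, and the interaction was 1.47 (SE 0.10; limma, adjusted p = 3.5e-10). For GINS3 it was 1.06 (SE 0.09; adjusted p = 1.13e-08): ESR2 cells read 8.16, 7.98 and 8.14 in normoxia and 7.63, 7.60 and 7.59 in hypoxia. MCM10 fell in parental and rose in ESR2 cells, where it read 8.16, 8.06 and 7.998 in normoxia against 8.68, 8.56 and 8.49 in hypoxia, an interaction of 1.07 (SE 0.12; adjusted p = 1.82e-07). ORC6 read 10.05, 9.97 and 10.03 in normoxic ESR2 cells against 9.89, 9.80 and 9.85 in hypoxic ones (interaction 1.12, SE 0.10). ORC5 read 9.08, 9.07 and 8.98 against 8.62, 8.74 and 8.84 (1.09, SE 0.09). For these subunits, then, the fall that set hypoxic parental cells apart was smaller in ESR2 cells or did not pass. GINS2 had an interaction of 0.68 and MCM6 one of 0.48; that of MCM6 was lost when its 3 probe sets were averaged (0.28, adjusted p = 0.247). CDC7 and CDT1 had interactions of 0.67 and 0.62, and both calls were lost in the same way (0.23 and 0.10).

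UNG showed the widest difference of all 52 genes, 2.16 (SE 0.19; limma, adjusted p = 1.1e-08), as it fell in hypoxic parental cells and rose in hypoxic ESR2 cells. At the fork RPA2 read 9.99, 9.98 and 10.13 in normoxic ESR2 cells against 10.09, 10.08 and 10.01 in hypoxic ones, with an interaction of 0.81 (SE 0.09; adjusted p = 3.02e-07). The chromatin assembly subunits had interactions of 0.73 for CHAF1A and 0.89 for CHAF1B, the latter 0.56 with the mean of its 2 probe sets. RRM2, TK1 and E2F2 had 0.51, 0.50 and 0.95, and E2F2 had 0.35 with the mean of its 2 probe sets. The 4 negative calls were ORC3 (-0.80, SE 0.10), PRIM2 (-0.60), DBF4 (-0.50) and RFC3 (-0.34), the last of which was lost without replicate 2 of untreated normoxic parental cells (-0.23) and turned in sign when its 4 probe sets were averaged (0.16, adjusted p = 0.0829). ORC3 read 8.54, 8.56 and 8.52 in normoxic and 8.26, 8.23 and 8.13 in hypoxic ESR2 cells, and fell by 0.33 there, while it rose in parental cells. The fall in ESR2 cells was not called when its 7 probe sets were averaged (-0.12, adjusted p = 0.346).

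**Figure D4:**
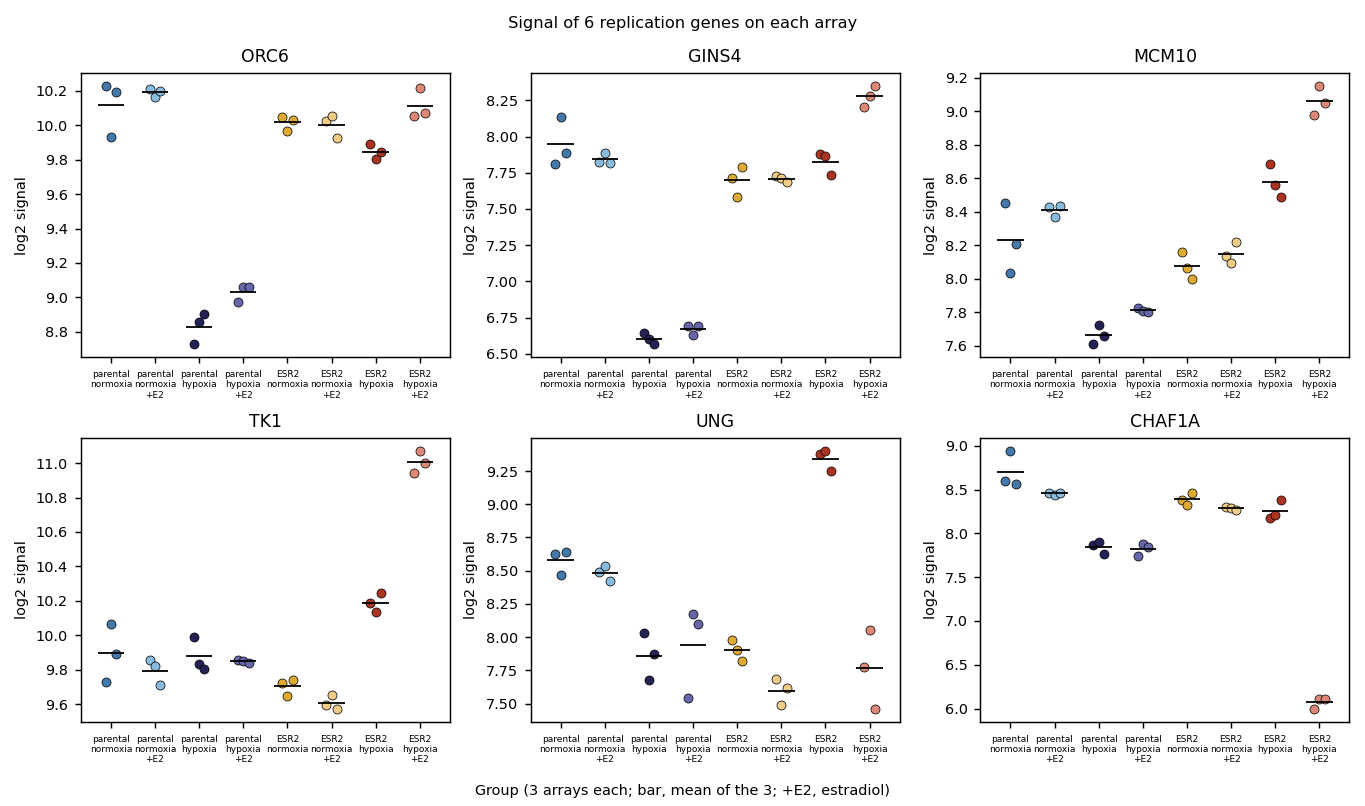
Log2 signal of ORC6, GINS4, MCM10, TK1, UNG and CHAF1A on each array (points) with the mean of the 3 arrays of a group (bar); each panel has its own axis. ORC6 and GINS4 are low in hypoxic parental cells only, UNG is highest in untreated hypoxic ESR2 cells, and CHAF1A is lowest in hypoxic ESR2 cells with estradiol.

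In normoxia the cell types were closer. Without estradiol 12 of the 52 genes were lower in ESR2 than in parental cells, 3 were higher and 37 did not pass (median -0.08), against 8.86% of all genes lower and 9.76% higher (18.6% in all). UNG was lower by the largest margin (-0.68, 1.6-fold lower; SE 0.14; limma, adjusted p = 0.00104), reading 7.98, 7.91 and 7.82 against 8.62, 8.47 and 8.64 in parental cells. Also lower were CHAF1B (-0.49), CDC45 (-0.40), CHAF1A (-0.32), RFC5 (-0.28) and RPA2 (-0.25). CDC7 (0.58), ORC3 (0.42) and MCM2 (0.37) were higher. Several of these rested on replicate 2 of parental normoxia. Without that array CHAF1A (-0.20), RPA2 (-0.19) and MCM2 (0.24) no longer passed, CHAF1B was -0.31, and 11 genes were called, 7 of them among the 15 called with it. CDC45 was lost with the mean of its probe sets (-0.04). With estradiol 8 genes were lower and 1 was higher, against 5.22% and 8.45% of all genes (13.7% in all). They were led by UNG (-0.88), DBF4 (-0.40), ORC1 (-0.38), CDC6 (-0.37), CDC45 (-0.33) and RFC5 (-0.30), with CDC7 higher (0.43). The mean of its probe sets gave 0.12 for CDC7, which was then not called.

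In hypoxia without estradiol 25 of the 52 genes were higher in ESR2 cells, 5 were lower and 22 did not pass (median 0.20), against 20.4% of all genes higher and 20% lower (40.4% in all). UNG was 2.79-fold higher (SE 0.14; limma, adjusted p = 5.45e-09), GINS4 2.33-fold higher, ORC5 2.02-fold higher, ORC6 2.02-fold higher, MCM10 1.89-fold higher and GINS3 1.87-fold higher. CDC7 read 6.05, 6.11 and 6.15 in hypoxic parental and 7.26, 7.32 and 7.45 in hypoxic ESR2 cells, a difference of 1.24. This is the value of its brightest probe set. With its probe sets averaged, the interaction of CDC7 without estradiol was 0.23 and not called. The same cell difference in hypoxia with estradiol went from 1.31 to 0.54. Genes that were lower were DBF4 (-0.67), PRIM2 (-0.56), ORC3 (-0.38), RFC3 (-0.29) and MCM8 (-0.28). With the mean of their probe sets RFC3 turned to 0.058 and MCM8 was -0.10, neither of them called. The summed level of the 5 leukocyte markers was also higher in these ESR2 cells, at 17.74 to 18.34 against 16.6 to 17.71 in hypoxic parental cells without estradiol. Over all groups it was 17.7 to 20.2 in ESR2 and 16.4 to 17.7 in parental cells. HLA-DRA lay between 4.36 and 6.46 over all arrays, while PTPRC, the defining marker, stayed near the floor. The part of these markers in the differences was not tested.

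Estradiol changed none of the 52 genes in 3 of the 4 settings by limma. In normoxic parental cells none of the 52 passed, against 0.011% of all genes, and 12 had an unadjusted p under 0.05 (23.1%, against 13.8% of all genes). In hypoxic parental cells none of the 52 passed, against 0.0164% of all genes, and 4 of them had an unadjusted p under 0.05 (7.69%, against 4.64% of all genes). In normoxic ESR2 cells none of the 52, and no gene of the array, passed, and 2 had such a p (3.85%, against 5.38%). Without replicate 1 of untreated normoxic parental cells, 4 of the 52 were called in normoxic parental cells, and without replicate 2, which stands apart, none was. Changes in these settings lay between -0.34 and 0.31, -0.13 and 0.29, and -0.30 and 0.19. TK1, for example, read 9.72, 9.65 and 9.74 without and 9.60, 9.65 and 9.57 with estradiol in normoxic ESR2 cells.

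In hypoxic ESR2 cells 14 genes rose with estradiol, 19 fell and 19 did not pass. Over all genes 35.4% rose and 21.6% fell, 57.0% in all, so the share of the 52 genes that changed was near that of the array; the groups did not overlap for 40 of the 52, against 58.1% of all genes. The median change was 0.12 over all genes and close to 0 over the 52, which is -0.12 relative to the array. The 3′ minus 5′ index of this group stands apart, as given above. All 3 arrays are shifted together, so index and estradiol cannot be told apart here. A fit with the index as a covariate takes its slope only from the spread within groups. That fit gave 11 rises and 18 falls and kept 26 of the 33 calls. The part of the index in these changes was not tested otherwise. CHAF1A read 8.17, 8.21 and 8.38 without and 5.996, 6.11 and 6.11 with estradiol, a change of -2.18 (SE 0.08; limma, adjusted p = 1.84e-15), 4.54-fold lower; all 3 of its probe sets fell, by 0.93 to 2.18, and the covariate gave -2.46. UNG fell from 9.38, 9.40 and 9.25 to 7.78, 8.06 and 7.46, a change of -1.58 (SE 0.14; adjusted p = 1.34e-09). These values overlap those of hypoxic parental cells with estradiol (7.54, 8.17 and 8.10), and the covariate gave -1.46.

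TK1 rose further, from 10.19, 10.13 and 10.25 to 10.94, 11.07 and 11.00, by 0.81 (SE 0.07; limma, adjusted p = 3.33e-09), and by 0.60 with the covariate. Every array of hypoxic ESR2 cells with estradiol lay above every other array of the series for TK1. DBF4 rose from 7.57, 7.55 and 7.60 to 8.08, 8.19 and 8.17 (0.57), RFC5, a clamp loader subunit, by 0.48, MCM10 by 0.48, GINS4 by 0.45 and GMNN by 0.39; with the covariate GINS4 did not pass (0.22, adjusted p = 0.0805). The mean of probe sets gave smaller rises of 0.26, 0.29, 0.23 and 0.25 for DBF4, RFC5, MCM10 and GINS4, and -0.84 for PRIM2. Among the genes that fell, MCM6 went from 9.33, 9.38 and 9.37 to 8.50, 8.59 and 8.56 (-0.81), PRIM1 from 9.08, 9.12 and 9.23 to 8.45, 8.44 and 8.65 (-0.63) and GINS3 from 7.63, 7.60 and 7.59 to 7.09, 7.09 and 6.88 (-0.59). PRIM2 fell by 0.51, RPA3 fell by 0.64 and POLA2 fell by 0.55; all 4 subunits of the polymerase alpha and primase complex, POLA1, POLA2, PRIM1 and PRIM2, fell. Within the helicase ring MCM2, MCM3, MCM6 and MCM7 fell, while MCM4 and MCM5 changed by 0.14 and -0.01 and did not pass. With the covariate MCM7 did not pass and MCM4 did, as a rise.

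**Figure D5:**
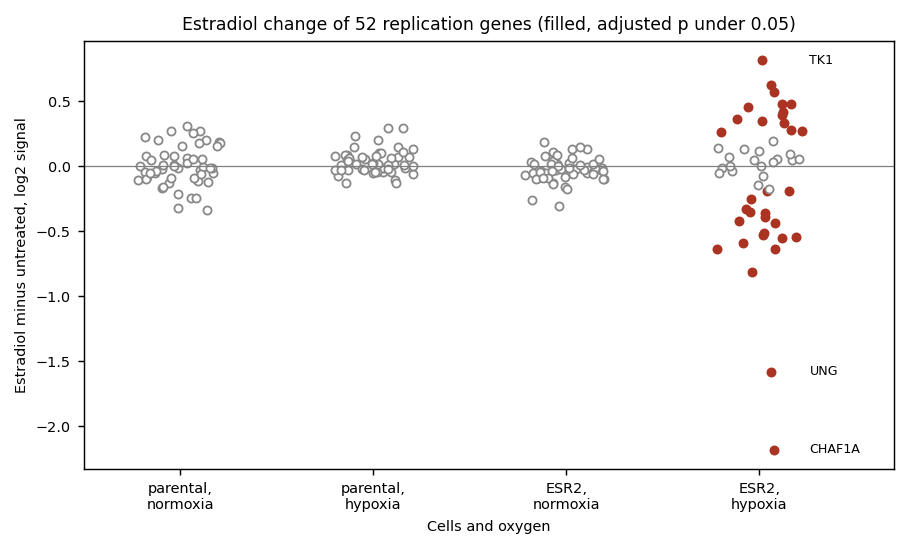
Estradiol minus untreated in log2 signal for the 52 genes (1 point a gene) in each combination of cells and oxygen; filled red points have an adjusted p under 0.05, and points are spread sideways only to be seen. All filled points lie in hypoxic ESR2 cells, from CHAF1A at -2.18 to TK1 at 0.81.

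With estradiol, hypoxia in ESR2 cells lowered 24 of the 52 genes, raised 7 and left 21 uncalled, against 22.6% and 29.6% of all genes (52.3% in all). With the index as a covariate 21 fell and 10 rose, with 25 of the 31 calls kept; with the probe sets of each gene averaged 17 fell and 9 rose, with 23 kept and 3 turned in sign, and the median moved from -0.11 to -0.04. CHAF1A fell by 2.21, PRIM1 fell by 1.27, GINS3 fell by 1.02, POLE2 fell by 0.93, PRIM2 fell by 0.81 and MCM6 fell by 0.67, while TK1 rose by 1.40 (SE 0.07; limma, adjusted p = 2.21e-13), MCM10 rose by 0.91, E2F1 rose by 0.62, GINS4 rose by 0.57, RFC5 rose by 0.50 and RFC1 rose by 0.42. The mean of 3 probe sets gave 0.38 for MCM10, and the covariate 0.36 for E2F1. The hypoxic rise of UNG seen in untreated ESR2 cells was not clear with estradiol. There UNG read 7.69, 7.49 and 7.61 in normoxia and 7.78, 8.06 and 7.46 in hypoxia, values that overlap. The interaction with estradiol was positive for 24 genes and negative for 7, against 20.6% and 18.1% of all genes (38.6% in all), and the covariate kept 27 of these 31 calls. It was positive for GINS4 (1.74), MCM10 (1.51), TK1 (1.34), ORC6 (1.27), ORC5 (0.93, or 0.39 with the mean of its probe sets) and RPA2 (0.78). It was negative for CHAF1A (-1.58), PRIM2 (-1.14), RPA3 (-0.97), PRIM1 (-0.78), MCM6 (-0.35) and POLA2 (-0.34), of which MCM6 lost its call, at a like size, when its probe sets were averaged (-0.38, adjusted p = 0.0954). POLA2 lay near the threshold: most alternatives lost the call, with the covariate for example at -0.39 (adjusted p = 0.0525), whereas the average of its probe sets kept it at -0.64.

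Set directly against hypoxic parental cells with estradiol, hypoxic ESR2 cells with estradiol were higher in 25 genes and lower in 12, against 27.8% and 19.8% of all genes (47.7% in all). With the index as a covariate 21 were higher and 11 lower, with 29 of the 37 calls kept and CDT1 turned from 0.29 to -0.01. GINS4 read 6.69, 6.63 and 6.69 in parental and 8.20, 8.28 and 8.35 in ESR2 cells, 3.05-fold higher (SE 0.07; limma, adjusted p = 1.68e-14). MCM10 read 7.83, 7.81 and 7.80 in parental against 8.98, 9.15 and 9.05 in ESR2 cells (2.38-fold higher), CDC7 was 2.49-fold higher, TK1 2.23-fold higher, ORC6 2.11-fold higher and ORC5 1.9-fold higher. With the mean of their probe sets the differences of CDC7 and ORC5 shrank to 0.54 and 0.33. CHAF1A was 3.36-fold lower and PRIM2, 8.86, 8.76 and 8.64 against 7.64, 7.57 and 7.64, 2.2-fold lower. PRIM1, RPA3 and POLA2 were lower too, with log2 differences of -0.84, -0.87 and -0.62. RPA1 was lower by its brightest probe set (-0.31) and higher when its 2 probe sets were averaged (0.23, adjusted p = 0.00155), so its direction is not settled.

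Whether estradiol altered the interaction was tested as the difference of the 2 interactions. It was positive for 6 genes and negative for 12, with 34 not called, against 13.5% and 14.9% of all genes (28.4% in all), whose median was 0.11, so the called share was near that of the array. The covariate gave 8 positive and 13 negative calls and kept 17 of the 18; leaving out replicate 2 of untreated normoxic parental cells gave 9 and 15 and kept all 18. CHAF1A (-2.30; SE 0.16; limma, adjusted p = 1.41e-09) and UNG (-1.45) led the negative calls, followed by MCM6 (-0.83), GINS3 (-0.69), MCM3 (-0.68) and PRIM1 (-0.57). TK1 (0.84), DBF4 (0.72), ORC3 (0.60), ORC1 (0.56), RFC5 (0.49) and RRM1 (0.45) were positive. With probe sets averaged DBF4, ORC3 and RRM1 shrank to 0.23, 0.24 and 0.13 and were not called, while RFC5 (0.36, adjusted p = 0.0527) and MCM6 (-0.66, adjusted p = 0.0522) fell just short of the threshold. ORC1 lost its call at 0.52 to 0.56 when 1 of 5 single arrays was left out, and both ORC1 (0.49) and RRM1 (0.38) with arrays centred on their medians. That of CHAF1A held under every alternative tried, as did those of GINS3, UNG and TK1. GINS4, ORC5 and ORC6, whose interactions were large with and without estradiol, had no called difference between them (0.27, -0.16 and 0.15).

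Another 51 genes of the pathway, not among the 52, were read in the same fit: cyclins and regulators of S phase entry, fork protection and histone supply genes and minor polymerase subunits. Unlike the 52 they were read in this fit only, not with the index as a covariate, with probe sets averaged or with arrays left out. In untreated parental cells hypoxia lowered 30 of the 51 and raised 5, against 21.2% and 16.4% of all genes. The interaction without estradiol was positive for 25 and negative for 6, against 16.4% and 14.3%. In untreated ESR2 cells hypoxia lowered 14 and raised 11, against 18.2% and 14.4%. CDC25A, the phosphatase that activates CDK2, read 8.32, 8.52 and 8.21 in normoxic and 6.69, 6.83 and 6.79 in hypoxic parental cells and fell by 1.58 (SE 0.08; limma, adjusted p = 1.6e-13). In ESR2 cells it read 7.73, 7.80 and 7.98 in normoxia against 8.33, 8.23 and 8.24 in hypoxia, with an interaction of 2.01. CCNE1, cyclin E1, fell by 1.23, MCMBP, a binding partner of the MCM proteins, fell by 1.05, and DTYMK, a thymidylate kinase, fell by 1.19. The interactions of CCNE1 and CCNE2 were 1.30 and 1.86. With estradiol in hypoxic ESR2 cells 23 of the 51 rose and 17 fell, against 35.4% and 21.6% of all genes. The arrays of that treated group stand apart by their 3′ minus 5′ index, and its part in these values was not tested. CCNE2, cyclin E2, went from 8.67, 8.44 and 8.54 to 9.92, 10.31 and 10.08 (1.55), and DTL, which targets CDT1 for destruction, rose by 0.81. E2F3 fell by 1.94, MCM9 fell by 1.57 and the fork protection gene TIMELESS fell by 1.29. SKP2, an F-box protein that marks cell cycle inhibitors for destruction, fell by 1.27 in hypoxic ESR2 cells without estradiol and had an interaction of -0.95, opposite in sign to CCNE1 and CCNE2; for cyclin A2, CCNA2, it was -0.12 and not called.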

How the data were processed

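RNA of 24 HCT116 samples was hybridised to Affymetrix arrays. The deposited values are log2 signals per probe set; RMA and the R package affy are named per the submitters' processing notes, with versions not given in the sources used here. RMA brings the probe distributions of the arrays together, so changes are relative to the array as a whole. Of 49386 probe sets, 93 controls, 1327 with several gene symbols and 2713 without one were left out, and the brightest of the remaining 45253 stood for each of 18239 genes; 38 of the 52 genes had over 1 probe set. The platform's symbols were used.

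Linear models over the 8 groups (3 arrays each, 16 residual degrees of freedom) were fitted with limma 3.58.1 in R 4.3.3 (data.table, version 1.17.8; plots with matplotlib 3.10.9), tested on simulated data, with Benjamini-Hochberg adjustment over all genes at 0.05. No gene was filtered by level. The genes and lists were chosen with earlier results of these data known. Array values are printed for the genes with the smallest p among those called: up to 4 a role for parental hypoxia and the interaction without estradiol, and up to 6 a direction elsewhere; any of the 52 may be named, and of the other pathway genes up to 6 a comparison. CDC7, MCM4, CDT1 and the overlapping values of UNG and TK1 are shown beside these.

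Alternatives were a second quantile normalization, median centring, all probe sets averaged by gene, a filter on dim genes, a trended robust prior, array weights, the replicate number as a block, the 3′ minus 5′ index as a covariate, only the groups compared, and each array left out. Array number limits the precision.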

Additional observations from a re-analysis of the deposited data

Results flagged for a closer look

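The results listed here drew attention because the hypoxia change differed between parental and ESR2 cells, or that difference between estradiol and no estradiol, by limma's interaction tests over all genes. Of the 52 genes, 28 had a called interaction without estradiol and 31 with it, and 18 had a called difference between these interactions, against 30.7%, 38.6% and 28.4% of all genes; the last count is near the share of the array. The comparisons share arrays, so the lists are not independent of each other.

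Without estradiol the interaction was positive for the firing genes GINS4 (1.47), MCM10 (1.07), GINS3 (1.06) and GINS2 (0.68), the licensing genes ORC6 (1.12), ORC5 (1.09) and MCM6 (0.48), and the nucleotide genes UNG (2.16), RRM2 (0.51) and TK1 (0.50). It was also positive for CHAF1B (0.89), RPA2 (0.81), CHAF1A (0.73) and E2F2 (0.95). It was negative for ORC3 (-0.80) and PRIM2 (-0.60).

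With estradiol it was positive for GINS4 (1.74), MCM10 (1.51), TK1 (1.34), ORC6 (1.27), ORC5 (0.93) and RPA2 (0.78), and negative for CHAF1A (-1.58), PRIM2 (-1.14), RPA3 (-0.97), PRIM1 (-0.78), MCM6 (-0.35) and POLA2 (-0.34). CHAF1A and MCM6 thus had called interactions of opposite sign with and without estradiol; that of MCM6 was called in neither setting with the mean of its probe sets.

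The difference of the interactions was negative for CHAF1A (-2.30), UNG (-1.45), MCM6 (-0.83), GINS3 (-0.69), MCM3 (-0.68) and PRIM1 (-0.57). It was positive for TK1 (0.84), DBF4 (0.72), ORC3 (0.60), ORC1 (0.56), RFC5 (0.49) and RRM1 (0.45). The hypoxic ESR2 arrays with estradiol, whose 3′ minus 5′ index was 3.42 to 4.01, enter every one of these differences. With the index as a covariate the difference was -2.45 for CHAF1A, -1.38 for UNG and 0.73 for TK1. The index is high on every array of that group, so this fit cannot tell the index from the group.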

How the results depend on the processing

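Hypoxia in parental cells gave 31 to 45 called genes over the alternatives, against 38, and the interaction without estradiol 25 to 36, against 28. Total counts of called genes moved by over 1.5 times only in the comparisons named next. ESR2 against parental cells in normoxia without estradiol gave 24 calls with array weights and 3 with only the groups compared, against 15. With estradiol it gave 14 with the mean of probe sets, 22 with array weights, 16 with the index as a covariate, 17 with only the groups compared and 19 without the arrays that stand apart (an alternative chosen after seeing the data), against 9, and 5 to 9 with single arrays left out. Estradiol with array weights gave 2 calls in normoxic and 1 in hypoxic parental cells, and 0 to 4 in normoxic parental cells with single arrays left out; the cause was not tested. With single arrays left out every other count stayed within 1.5 times its value. With the mean of probe sets RPA1 in ESR2 against parental cells in hypoxia with estradiol turned to 0.23, and RFC3 in the same comparison without estradiol to 0.058, where probe sets of the gene differ. Over the named results and alternatives 2483 values kept direction and call, 67 lost the call and 2 reversed. The named results are the called genes with the smallest p, so these counts say little about weaker calls. Over all called genes of the 52, 17 values turned in sign with the mean of probe sets, 6 of them to a call in the other direction (RPA1 in 4 comparisons, CDT1 and RRM2), and 2 with the covariate. Replicate numbers did not pair the samples (median correlation of deviations -0.0227, -0.00996 and -0.0246 for numbers 1, 2 and 3); with the number as a block the calls went from 26 to 25 for hypoxia in ESR2 cells without estradiol, from 31 to 28 for the interaction with estradiol and from 37 to 36 for ESR2 against parental cells in hypoxia with estradiol, and no other count changed.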

Other observations

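Probe sets of a gene did not always read the same change. In hypoxic ESR2 cells estradiol changed the 3 probe sets of MCM6 by -1.98 to 0.02 and the 7 of ORC3 by -0.50 to 0.37, and the 2 of RPA1, which binds single strands, by -0.36 and 0.62, with 1 called in each direction. The 4 probe sets of RFC3 had interactions without estradiol of -0.34 to 1.18, again with 1 called each way, and those of MCM4 had -0.003 to 1.56 with 2 called higher, although its brightest was not. RRM2 had -0.21 and 0.67 for hypoxia in untreated ESR2 cells, both called. By contrast the 3 probe sets of CHAF1A fell with estradiol in hypoxic ESR2 cells (-2.18 to -0.93), the 2 of UNG fell there by nearly the same amount (-1.58 and -1.56), and 6 of the 7 of DBF4 fell in hypoxic untreated ESR2 cells (-0.93 to 0.09). Which transcripts each probe set reads was not analysed here.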
